A study of Mus musculus with 21 samples.

Results

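The 10 Fanconi anemia genes measured here were Fanca, Fancb, Fancc, Fancd2, Fance, Fancf, Fancg, Fanci, Fancl and Fancm, chosen by gene name from a table of 37620 genes. All 10 were found, 1 row each. The table came from RNA-seq of germ cells enriched by collagenase and trypsin digestion from testes of wild-type C57BL/6J (B6) mice at 12 dpp (days post-partum), an inbred laboratory strain at the age when the first wave of cells enters meiosis. There were 12 libraries, 3 under each sample number: 186wt, then 343wt, then 444wt and finally 456wt. No treatment, genotype or time distinguishes the 4 samples, and the study made the table to relate gene expression to meiotic recombination hotspots. Levels are in FPKM, which divides the fragments assigned to a gene by its transcript length and by the depth of the library, so that genes can be compared with each other. The 3 libraries of a number may share 1 RNA, so they were averaged, and each mean ± SD is over 4 samples (n = 4).

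The Fanconi anemia pathway repairs interstrand crosslinks, lesions that join both strands of the DNA helix and block replication forks. A nuclear core complex with ubiquitin ligase activity attaches a single ubiquitin to FANCD2 and FANCI, and the modified pair clamps onto DNA and directs nucleases, translesion polymerases and homologous recombination to the lesion. Inherited loss of many genes of this pathway in people causes bone marrow failure, and mice lacking several of them have few germ cells and reduced fertility.

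Marker genes of several cell types had different levels in the 4 samples. Summed over the 5 genes of the germ cell list (Ddx4, Dazl, Mael, Tdrd1 and Dnd1), the 3 libraries of a number gave 373 to 377 FPKM in 186wt, 374 to 384 in 343wt, 563 to 569 in 444wt and 471 to 477 in 456wt. The 9 Sertoli cell genes ran the other way, with mean sums of 4399 FPKM in 186wt, 4570 in 343wt, 2549 in 444wt and 2723 in 456wt, so markers of the somatic support cells were abundant in preparations labelled as spermatocytes. All 13 meiotic prophase genes found were detected, and their sums were 519, 425, 702 and 524 FPKM in the same order. Sums of the 5 peritubular myoid genes ranged from 253 FPKM in 343wt to 1112 in 456wt, and those of the 6 Leydig cell genes from 16.1 FPKM in 444wt to 110.5 in 343wt. The 5 endothelial genes ranged from 13.3 FPKM in 444wt to 33.5 in 456wt, and the 5 macrophage genes from 5.44 FPKM in 444wt to 21.1 in 343wt. The 7 round spermatid genes summed to between 3.37 and 5.28 FPKM, with Prm2 at 0 in every library. In bulk RNA, fewer cells of a type and less RNA per cell cannot be told apart.

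Within the core complex, Fanca and Fancg encode scaffold subunits that bind each other. Fanca lies on the minus strand of chr8:125792200-125842476 (NCBI build 37, GENCODE M1, as for every gene position here), and its longest annotated transcript has 43 exons. Fancg lies on the minus strand of chr4:43015215-43023378 with 14 exons. Fancb (chrX:161418524-161435204, plus strand, 9 exons) is X-linked and forms a catalytic module with Fancl (chr11:26286135-26371876, plus strand, 14 exons), the RING-type ubiquitin ligase of the complex. Fancc (chr13:63406017-63598586, minus strand, 17 exons), Fance (chr17:28450475-28463513, plus strand, 9 exons) and Fancf (chr7:59115947-59117637, minus strand, a single-exon gene) encode the module that bridges the ligase to its substrate. Fancm (chr12:66176593-66233045, plus strand, 23 exons) encodes the DNA translocase that anchors the complex to chromatin. The substrates are encoded by Fancd2 (chr6:113481676-113547011, plus strand, 44 exons) and Fanci (chr7:86536815-86595151, plus strand, 38 exons), 2 related proteins that form the heterodimer called ID2.

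Promoter windows of 250 bases before the start were available for 9 members from RefSeq (GRCm38.p6, a newer build than that of the expression table), and not for Fancd2. The following 5 are shown because they belong to the members whose profiles across the 4 samples were nearest to each other (Fancb with Fancf, Fance with Fancm) or to Fancd2 (Fanci). Each reads 5′ to 3′ on the strand of the gene, and capitals mark matches to the motifs searched.
Fancb, chrX:164980342-164980591, strand +: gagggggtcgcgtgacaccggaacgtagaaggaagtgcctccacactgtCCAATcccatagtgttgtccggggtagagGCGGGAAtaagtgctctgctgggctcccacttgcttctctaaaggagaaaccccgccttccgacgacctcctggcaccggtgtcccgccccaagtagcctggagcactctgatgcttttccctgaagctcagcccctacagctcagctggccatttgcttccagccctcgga
Fancf, chr7:51862268-51862517, strand −: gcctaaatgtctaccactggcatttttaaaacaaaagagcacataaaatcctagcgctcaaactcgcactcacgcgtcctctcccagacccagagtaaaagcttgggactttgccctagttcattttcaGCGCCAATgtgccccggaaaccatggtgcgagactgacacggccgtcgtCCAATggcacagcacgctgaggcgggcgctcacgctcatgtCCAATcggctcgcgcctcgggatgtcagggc
Fance, chr17:28313280-28313529, strand +: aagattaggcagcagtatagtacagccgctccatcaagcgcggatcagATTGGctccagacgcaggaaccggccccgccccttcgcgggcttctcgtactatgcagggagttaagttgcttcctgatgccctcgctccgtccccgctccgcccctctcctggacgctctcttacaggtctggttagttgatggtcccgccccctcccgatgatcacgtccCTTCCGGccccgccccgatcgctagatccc
Fancm, chr12:65075353-65075602, strand +: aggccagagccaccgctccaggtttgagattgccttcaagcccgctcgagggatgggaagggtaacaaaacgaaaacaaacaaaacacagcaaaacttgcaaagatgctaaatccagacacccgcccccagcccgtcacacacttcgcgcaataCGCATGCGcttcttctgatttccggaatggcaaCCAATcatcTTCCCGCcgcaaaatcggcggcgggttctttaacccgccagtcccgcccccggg
Fanci, chr7:79392088-79392337, strand +: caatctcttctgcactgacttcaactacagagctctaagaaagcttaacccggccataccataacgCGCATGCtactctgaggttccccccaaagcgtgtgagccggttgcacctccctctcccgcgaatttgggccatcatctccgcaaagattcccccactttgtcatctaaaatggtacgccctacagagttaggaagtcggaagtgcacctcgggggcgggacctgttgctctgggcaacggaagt

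The motifs of 4 factor families were searched on both strands of these windows, without allowing a mismatch. An E2F-type match (TTCCCGC or TTGGCGC), the letters bound by the E2F family of S-phase regulators, was found in 4 of the 9 member windows (Fancb, Fancf, Fancg and Fancm), against 5.62% of all 32851 windows of the same length. In Fancg and Fancm the match began 51 and 54 bases before the start, and in Fancf and Fancb 121 and 172 bases before it. The CCAAT box (CCAAT), bound by NF-Y, was in 6 member windows (Fanca, Fancb, Fancc, Fance, Fancf and Fancm), against 33.8% of all. Fancf held 3 copies, and its most distant copy shared letters with the E2F-type match. The NRF1 core (GCATGCG) was in Fanci and Fancm, against 3.02% of all, and the ETS-type letters (CCGGAAG) were in Fance, against 6.91% of all. The window of Fancl held none of these letters. A match is a description of the sequence, and whether a factor binds there was not tested.

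All 10 genes were above 0 in all 12 libraries. Among 20795 genes taken as expressed (0.1 FPKM or more on average, median 5.01 FPKM), 3 members were in the top quartile (Fanca, Fance and Fancd2), 5 in the second and 2 in the third (Fancf and Fancb). The top quartile began at 21.1 FPKM. With a minimum of 1 FPKM in place of 0.1 its bound rose and 0 members were in the top quartile. The median over the 10 members was 10.6 ± 1.38 FPKM.

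Fanca had the highest mean of the 10, 28.3 ± 6.84 FPKM. Its sample means were 24.0 FPKM in 186wt, 20.9 in 343wt, 34.0 in 444wt and 34.2 in 456wt. The libraries of 186wt (23.6 to 24.6) and 343wt (19.9 to 22.1) were all below those of 444wt (33.7 to 34.4) and 456wt (33.8 to 35.0), which overlapped each other. Its partner Fancg averaged 18.9 ± 1.92 FPKM, with 19.2, 16.3, 21.0 and 19.0 FPKM in the same order. The libraries of Fancg overlapped between all sample pairs but 343wt and 444wt. Here and for the members below, overlap between libraries was not counted over all genes. The ratio of Fanca to Fancg was 1.26 in 186wt, 1.28 in 343wt, 1.62 in 444wt and 1.80 in 456wt (1.49 ± 0.266).

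The ligase gene Fancl averaged 7.65 ± 1.19 FPKM (6.47 in 186wt, 7.03 in 343wt, 9.21 in 444wt and 7.87 in 456wt). Its libraries in 186wt and 343wt were all below those in 444wt and 456wt. Fancb, of the same module, was the lowest of the 10 at 0.755 ± 0.117 FPKM, with 0.703, 0.633, 0.907 and 0.777 FPKM in the 4 samples. Fancl stood at 10.1 ± 0.778 times Fancb. An estimated 22.1 to 45.9 fragments per library lay behind each value of Fancb, against 1357 to 2320 for Fanca.

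In the bridging module, Fance averaged 26.6 ± 2.83 FPKM, Fancc 9.93 ± 1.10 and Fancf 4.72 ± 0.728, so the 3 transcripts were not present in equal amounts. Fance had 25.1 FPKM in 186wt, 23.4 in 343wt, 29.2 in 444wt and 28.8 in 456wt, with all libraries of the first 2 samples below all of the last 2. Fancf followed the same order of samples (4.37, 3.94, 5.62 and 4.95 FPKM), but the libraries of 456wt overlapped those of every other sample. Fancc had 9.60, 9.89, 11.4 and 8.80 FPKM and was the only member lowest in 456wt. The chromatin anchor Fancm averaged 5.99 ± 0.554 FPKM (5.66, 5.39, 6.56 and 6.34), and its libraries in 186wt and 343wt lay wholly below those of 444wt and 456wt.

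The substrate genes were measured at 23.3 ± 4.44 FPKM for Fancd2 and 11.2 ± 2.25 FPKM for Fanci. Fancd2 had 20.1 FPKM in 186wt, 19.0 in 343wt, 28.2 in 444wt and 26.0 in 456wt. Fanci had 9.64, 8.97, 13.4 and 12.9 FPKM in the same order, and for both genes the libraries of 186wt and 343wt lay wholly below those of 444wt and 456wt. The ratio of Fancd2 to Fanci was 2.09, 2.12, 2.10 and 2.02, or 2.08 ± 0.0441. The mean over the ID2 pair was 17.3 ± 3.34 FPKM and that over the 8 core members 12.9 ± 1.74 FPKM. Their log2 ratio was 0.32 in 186wt, 0.36 in 343wt, 0.50 in 444wt and 0.49 in 456wt.

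**Figure D1:**
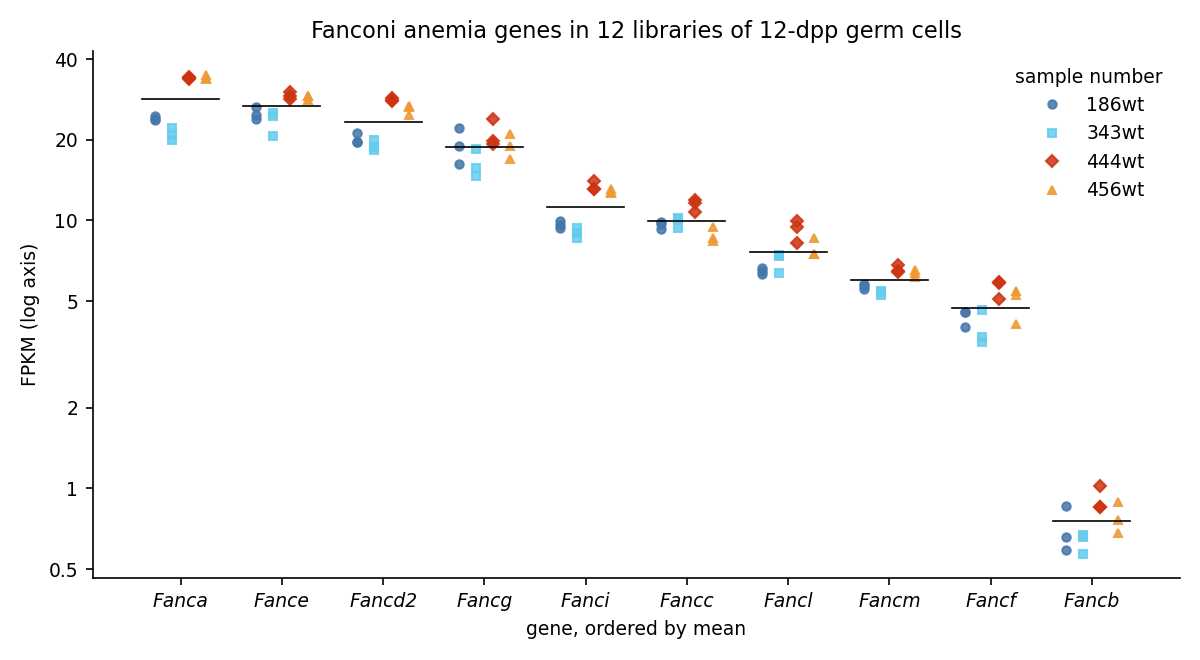
FPKM (log axis) of the 10 genes, ordered by mean, with a point for each of the 12 libraries, colours and shapes for the 4 sample numbers, and a line at the mean over samples. Fanca, at 28.3 FPKM, and Fancb, at 0.755 FPKM, are the ends of the order. For most of the 10 genes the points of 186wt and 343wt lie below those of 444wt and 456wt. The share of all genes placed in this way was not counted.

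In the order of means (Fanca, Fance, Fancd2, Fancg, Fanci, Fancc, Fancl, Fancm, Fancf, Fancb), neighbours were mostly close. The ranges of the 4 sample means did not overlap between Fancg and Fanci, nor between Fancf and Fancb, and they overlapped for the other 7 neighbouring pairs. Fanca and Fance kept their order in 2 of 4 samples and Fanci and Fancc in 3 of 4, while the other 7 pairs kept it in 4 of 4. An exact two-sided sign-flip permutation test over 4 samples cannot go below p = 0.125, so no test of the order was made.

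Differences between the samples were tested with limma on log2(FPKM + 0.1) across all 20795 expressed genes, with Benjamini-Hochberg adjustment over all of them and a threshold of 0.05. The spread in this fit is that between libraries of a number, which may be technical, so the p-values compare these 4 samples and no conditions. By the F-test over the 4 samples, 8 of the 10 members differed, against a background of 58.2% of all genes tested. Fancg (adjusted p = 0.138) and Fancb (adjusted p = 0.181) did not pass. The median range between the highest and the lowest sample was 0.48 on the log2 scale for the members and 0.55 for all genes tested. Fanca had the largest range of the 10 (0.71, adjusted p = 2.64e-08), and 63.1% of tested genes had a smaller one. Fanci (range 0.58, adjusted p = 1.35e-06) and Fancd2 (range 0.56, adjusted p = 1.40e-06) came next, at the middle of all genes.

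The remaining 5 members that passed were Fancc (adjusted p = 0.00161), Fancm (0.00173), Fancl (0.00196), Fance (0.00258) and Fancf (0.0239). Fancm had the smallest range of the 10, 0.28, and 20.8% of tested genes had a smaller one. The call for Fancf was lost when replicate 1 or 2 of 343wt (adjusted p = 0.0656 and 0.0660) or replicate 1 or 3 of 444wt (0.0721 and 0.0715) was left out, and likewise without the whole sample 343wt (0.0759) or 444wt (0.179). With 444wt left out, Fancc no longer passed (adjusted p = 0.0987).

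Each sample was then set against the mean of the other 3. In 444wt, 8 of 10 members were higher, against a background of 26.5% of all genes, with log2 differences from 0.18 ± 0.0422 (SE) for Fancm to 0.40 ± 0.0301 for Fanca. Fancb (0.33 ± 0.147, adjusted p = 0.0926) and Fancg (0.21 ± 0.104, adjusted p = 0.125) did not pass. By the same limma fit, 0 members were lower in 444wt (background 17.8%), and 0 were higher in 186wt (14.8%) or in 343wt (14.5%), with 0 in each case also at an unadjusted p under 0.05. The median difference of the members in 444wt was 0.34, beside 0.08 for all genes tested. The germ cell list had 0.49 (5 of 5 genes higher) and the meiotic prophase list 0.53 (13 of 13). Spermatogonia genes had 0.44 (8 of 9) and proliferation genes 0.40 (14 of 15). The peritubular myoid (0.36, 3 of 5 higher) and round spermatid (0.67, 2 of 5 tested) medians were also positive. The round spermatid genes were near the floor, with a median level of 0.1625 FPKM over the list. Those of the Sertoli (−0.40), endothelial (−0.73), macrophage (−1.55) and Leydig (−2.23) lists were negative. Higher levels in 444wt were therefore not particular to the members. Without replicate 3 of 444wt, Fance (adjusted p = 0.0658) and Fancf (0.0752) no longer passed, nor did Fancf without replicate 1 of 444wt (0.0778). Without the sample 343wt, Fancf (0.0641) and Fancm (0.0656) were lost.

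In 343wt, 6 of 10 members were lower, against a background of 25.6%. These were Fanca (−0.54 ± 0.0301, adjusted p = 9.12e-08), Fanci (−0.40 ± 0.0387), Fancd2 (−0.36 ± 0.0368), Fancf (−0.33 ± 0.105), Fance (−0.24 ± 0.0530) and Fancm (−0.19 ± 0.0422). Fancf was lost here without replicate 1 (adjusted p = 0.115) or replicate 2 (0.139) of 343wt and without the sample 444wt (0.170). Fancc differed by 0.00 ± 0.0494 in this sample. In 186wt, 4 of 10 were lower, against 21.9% of all genes: Fancl (−0.30 ± 0.0705), Fanca (−0.27 ± 0.0301), Fanci (−0.26 ± 0.0387) and Fancd2 (−0.26 ± 0.0368). Fancl was the only member with its lowest mean in 186wt, and its call was lost without the sample 444wt (adjusted p = 0.0617).

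In 456wt, 4 of 10 members were higher, against 22.9% of all genes: Fanca (0.41 ± 0.0301, adjusted p = 8.75e-07), Fanci (0.29 ± 0.0387), Fancd2 (0.23 ± 0.0368) and Fance (0.16 ± 0.0530, adjusted p = 0.0357). The call for Fance was lost with any 1 of 7 libraries left out, with adjusted p from 0.0537 to 0.113 (replicates 1 and 2 of 186wt, 1 and 2 of 444wt, and 1, 2 and 3 of 456wt), and without the sample 186wt (0.102) or 343wt (0.106). Fancc was lower (−0.22 ± 0.0494, adjusted p = 0.00410), the only member among the 13.6% of all genes lower in this sample. Fancf, of the same bridging module, did not pass in 456wt (0.10 ± 0.105, adjusted p = 0.510).

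**Figure D2:**
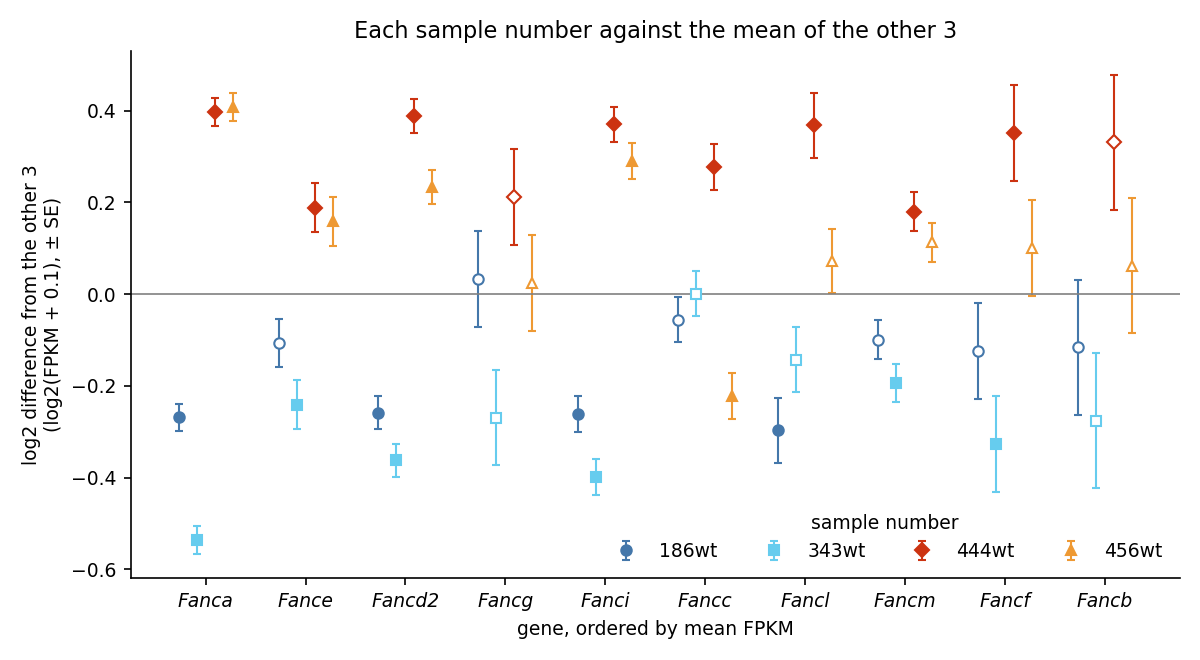
Log2 difference (± SE) of each sample number from the mean of the other 3, on log2(FPKM + 0.1), for the 10 genes ordered by mean FPKM. Filled points passed an adjusted p of 0.05 (limma) and open points did not. 8 of the 10 points of 444wt are filled and above 0, and the point of Fancc in 456wt, at −0.22, is the only filled one of that sample below 0.

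The counts depended on the scaling of the libraries. After median-of-ratios scaling, 6 members differed between samples (background 56.1%), 5 were higher in 444wt (18.7%), 4 lower in 343wt (16.7%) and 3 higher in 456wt (17.4%). The share of higher genes among all genes called moved with it, from 59.8% to 45.1% in 444wt, from 36.1% to 55.4% in 343wt, from 40.3% to 51.3% in 186wt and from 62.8% to 48.8% in 456wt. Under this scaling, Fancf (adjusted p = 0.0998) and Fancm (adjusted p = 0.0564) lost their calls in the F-test. Fanca, Fancd2 and Fanci kept their calls and directions in every sample under this scaling and under the other pseudocounts, filters, common total, variance model, replicate block and left-out libraries. Scaled to the germ cell list, a further alternative described with the marker lists, these 3 lost the calls of higher in 444wt and of lower in 186wt.

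Among the members, Fancd2 and Fanci had close profiles across the 4 samples, with a root mean square difference of 0.0258 on the centred log2 scale. Fancf and Fancb were at 0.0247 and Fance and Fancm at 0.0232. For each of these genes, a gene outside the members averaging 1 FPKM or more was closer than its nearest member. The closest was at 0.00659 from Fancd2, 0.00273 from Fanci, 0.00784 from Fancf, 0.00430 from Fancb, 0.00376 from Fance and 0.00457 from Fancm. Such closeness is therefore not particular to pairs of members. For Fancc the nearest member was Fancg, at 0.143, the most distant nearest neighbour of the 10, and its distance to Fanca was 0.323. Over all genes averaging 1 FPKM or more, those nearest to Fanca were Gpr162 (0.0178), Acan (0.0190) and N28178 (0.0210). These distances rest on 4 samples.

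**Figure D3:**
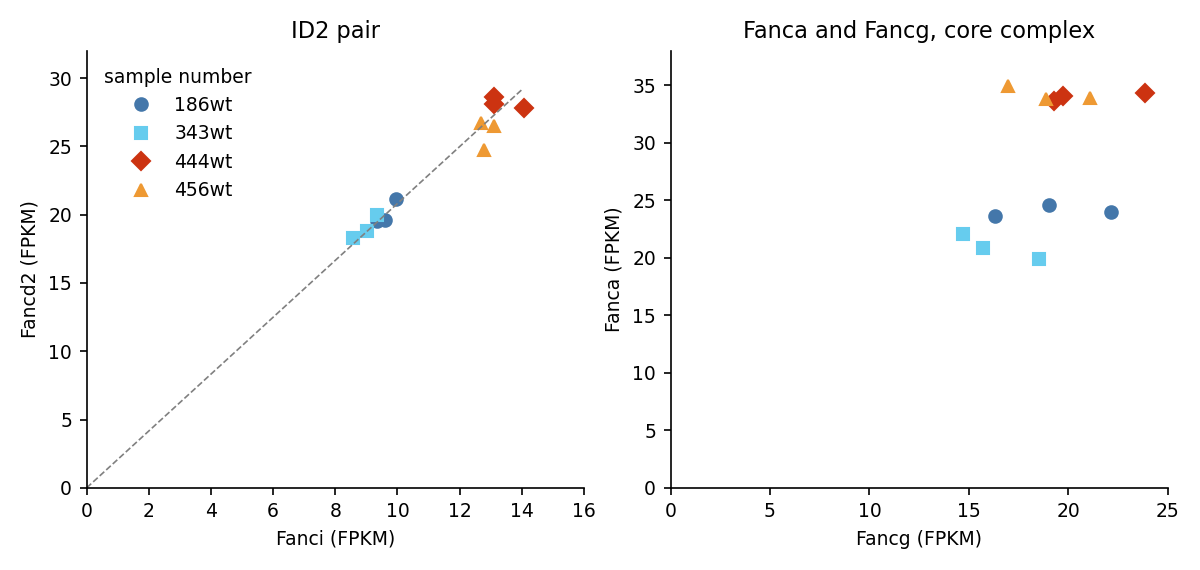
FPKM of Fancd2 against Fanci (left) and of Fanca against Fancg (right), a point for each of the 12 libraries, with both axes from 0. The dashed line has the mean ratio of 2.08: the Fancd2 and Fanci points lie along it, whereas at one level of Fanca the libraries of a sample spread widely in Fancg.

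The summed members were then set beside the marker lists. The sum over the 10 members was 125 FPKM in 186wt, 116 in 343wt, 159.5 in 444wt and 149.6 in 456wt, a coefficient of variation of 15.0% between samples. In percent of the germ cell list it was 33.2%, 30.4%, 28.2% and 31.6%, a coefficient of variation of 6.91%, and in percent of the 15 proliferation genes it was 16.1%, 14.4%, 14.3% and 14.6%, or 5.67%. Against the spermatogonia list the coefficient was 6.42%, against the meiotic prophase list 10.5% and against the Sertoli list 43.8%. As deposited, 9 of the 10 members were highest in 444wt, the sample in which the germ cell list was also highest. Relative to that list, 7 of the 10 were lowest in 444wt, Fanca and Fanci in 343wt and Fancc in 456wt. These counts of highest and lowest samples were not made over all genes. In the limma fit on values scaled to the germ cell list, 7 of 10 members differed between samples, against 64.8% of all genes. In 444wt, 5 were lower (background 57.9%) and 0 higher (1.31%), and in 186wt 4 were higher (47.9%) and 0 lower (2.95%), with each 0 also at an unadjusted p under 0.05. The median difference of all genes was then −0.36 in 444wt and 0.25 in 186wt, and that of the members −0.11 and 0.17. This scaling was chosen after the values were seen, and the part of cell composition in the differences between samples was not tested.

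**Figure D4:**
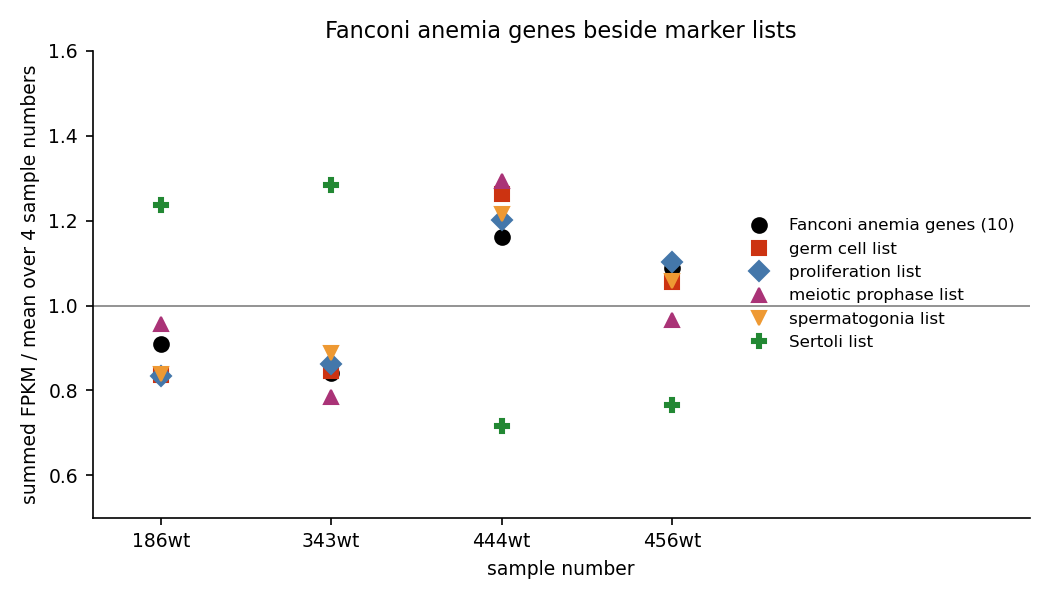
Summed FPKM of the 10 genes and of 5 marker lists in each sample number, divided by the mean of that sum over the 4 samples (the vertical axis starts at 0.5). The Fanconi anemia genes (0.91, 0.84, 1.16 and 1.09) lie on the same side of 1 as the germ cell, proliferation and spermatogonia lists in every sample. In 186wt and 444wt they lie closer to 1 than these lists. The meiotic prophase list (0.96, 0.78, 1.29 and 0.97) lies on the other side of 1 from the Fanconi anemia genes in 456wt. In 186wt it lies closer to 1 than they do. The Sertoli list (1.24, 1.28, 0.72 and 0.76) lies on the other side of 1 in every sample.

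Of 35 other genes of the pathway, 25 differed between samples by the F-test, beside the 58.2% of all genes, and their median range was 0.37. In the recombination arm, which repairs the break left after unhooking, 9 of 9 differed and 8 of 9 were lower in 343wt, the latter against 25.6% of all genes. Brca2, a mediator of homologous recombination, was highest in 444wt (19.4 FPKM) and lowest in 343wt (11.4), and its 456wt level (12.9 FPKM) was below the mean of the other 3 by a log2 difference of −0.18 ± 0.0327. Rfwd3, a ubiquitin ligase that acts on RPA, had the highest level of the 35 (99.0 ± 7.73 FPKM) and was the only gene of the arm higher in 343wt (109 FPKM).

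The enzymes that add and remove the ubiquitin of the ID2 pair also differed between samples. Ube2t, the ubiquitin-conjugating enzyme that works with FANCL, had 27.0, 24.2, 36.4 and 30.2 FPKM (adjusted p = 1.84e-05). Usp1, which removes the ubiquitin from FANCD2, had 26.1, 26.3, 33.4 and 34.2 FPKM, and its cofactor Wdr48 33.5, 33.8, 37.9 and 39.3. Both were lower in 186wt and in 343wt and higher in 444wt and in 456wt. Of the 6 core partners, 4 differed, a share near the 58.2% of all genes. Faap24, the partner of FANCM, had 4.70, 4.29, 5.50 and 5.40 FPKM and did not pass (adjusted p = 0.252), nor did Faap100 (14.2 ± 0.764 FPKM, adjusted p = 0.189), which belongs to the module of FANCB and FANCL.

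Of the 9 nucleases and unhooking factors, 3 differed (Eme1, Slx4 and Mus81), below the 58.2% of all genes. The nuclease Fan1, which binds the ubiquitinated pair, had 4.24, 4.16, 4.30 and 3.83 FPKM (adjusted p = 0.317). Dclre1b had the smallest range of the 35, 0.06 on the log2 scale (4.25, 4.11, 4.20 and 4.31 FPKM). Of the 6 translesion synthesis genes, 4 differed (Mad2l2, Poln, Rev1 and Polh), a share near that of all genes. The 3 genes found of the BLM complex, which dissolves joined DNA molecules, all differed (58.2% of all genes) and were all higher in 444wt (26.5% of all genes).

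**Figure D5:**
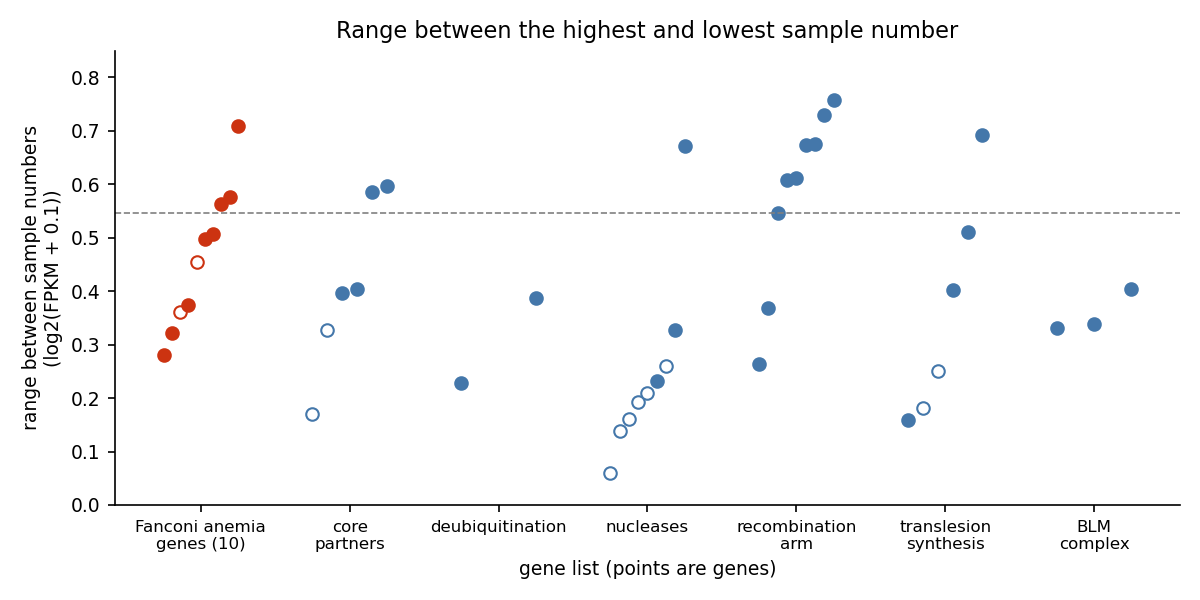
Range between the highest and lowest sample number, on log2(FPKM + 0.1), for the 10 genes (red) and 35 other pathway genes by list (blue). Filled points passed the F-test (limma, adjusted p of 0.05), and the dashed line is the median of all genes tested, 0.55. The points run from 0.06 for Dclre1b to 0.76 for Brca2, and 6 of the 9 nuclease genes are open.

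The spread between libraries of a number was below the estimated counting error for Fanci, Fancb and Fancm, and above it for the other members. From the steps between low values, the libraries held an estimated 12800000 to 17800000 fragments (median 14900000). The coefficient of variation between libraries, pooled over the 4 samples, was between 0.691 (Fancm) and 1.79 (Fance) times the counting error for 9 members. For Fancg it was 12.7% against a counting error of 3.52%, or 3.60 times it, with 16.3, 19.0 and 22.1 FPKM in the 3 libraries of 186wt. Fancg has 10 annotated transcripts, Fancc 19 and Fance 15. These estimates cover counting error only.

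Exons of 6 members share bases with a gene on the opposite strand, and a strand setting is not stated for the counting, so reads of the 2 genes cannot be told apart there. For Fanci, 856 bases (14.8% of its exon bases) lie in Polg, the mitochondrial DNA polymerase gene, which was at 51.3 ± 4.68 FPKM. For Fancf, 253 bases (15.0%) lie in Gas2 (4.78 FPKM), and for Fancl 462 bases (13.7%) lie in Vrk2 (5.57 FPKM). Fanca shares 652 bases (7.68%) with Zfp276, Fancd2 257 (3.24%) with 4931417G12Rik and Fancc 185 (2.35%) with 2010111I01Rik. Fancb, Fance, Fancg and Fancm share none.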

How the data were processed

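RNA was measured in 12 libraries of enriched germ cells from B6 mice at 12 dpp. The authors mapped paired reads onto transcripts of NCBI build 37 using Bowtie 0.12.9, discarded reads with several mismatches and computed FPKM with RSEM 1.2.8, and deposited these FPKM as 1 column per library. A strand setting is not given in the sources used here. Affinity-seq and ChIP-seq samples of the series were not analysed here.

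Columns were mapped to samples by name, and 0 columns were left out. Genes averaging 0.1 FPKM or more were fitted in limma 3.58.1 (R 4.3.3) on log2(FPKM + 0.1), with eBayes with a trend, by a two-sided F-test and 4 contrasts. Fold changes on this scale understate those of low genes. Alternatives changed the pseudocount, filter, scaling, variance model, replicate block and the libraries included. Fragments were estimated from the steps between values of genes with a single transcript, on each member's longest transcript. The limma and depth steps were tested on simulated data. The simulated limma shifts were larger than the range of any member, so smaller differences were not covered. Python 3.11.15 was used for the summaries. Gene positions and exons came from GENCODE M1.

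The members and lists were chosen with earlier results of these data known. The named genes are the members, the listed pathway genes, genes overlapping a member, and the 3 genes nearest in profile to the member with the smallest F-test p. Rmi2 and Meiob were not found by symbol.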

Additional observations from a re-analysis of the deposited data

Results flagged for a closer look

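Of 41 values tested over the 4 samples with Dixon's criterion, 1 stood apart, where chance gives about 2.05. It was the sum of the 10 Fanconi anemia genes in percent of the summed proliferation list, at 16.1% in 186wt against 14.4% in 343wt, 14.3% in 444wt and 14.6% in 456wt. The gap between 186wt and the next sample was 0.830 of the whole range.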

How the results depend on the processing

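Under 25 alternatives, 6 to 8 of the 10 members, 9848 to 13459 of all genes and 19 to 26 of the 35 other pathway genes differed between samples. The pseudocounts, the common total, the variance model and the filters moved no count over the members by more than 1.5 times in the tests. With expressed genes taken at a mean of at least 1 FPKM, 0 members were in the top quartile in place of 3. With median-of-ratios scaling, 5 members were higher in 444wt in place of 8. Scaling to the germ cell list, chosen after seeing the data, left 7 members differing but moved the median log2 difference of all genes to 0.25 in 186wt, 0.18 in 343wt, −0.36 in 444wt and −0.07 in 456wt. By limma, 4 members were then higher (47.9% of all genes) and 0 lower in 186wt (0 lower at an unadjusted p under 0.05; 2.95%), 1 was higher (41.3%) and 2 were lower (5.57%) in 343wt, and 0 were higher (0 unadjusted; 1.31%) and 5 lower (57.9%) in 444wt. The members' median was −0.11 in 444wt, above that of all genes. The cause was not tested. With 1 library left out, 7 to 8 members differed, 6 to 8 were higher in 444wt, 5 to 7 lower in 343wt, 4 to 5 lower in 186wt and 3 to 5 higher in 456wt. With a sample left out, 6 to 8 differed and 3 to 6 were lower in 186wt, 5 to 8 lower in 343wt, 6 to 8 higher in 444wt and 3 to 6 higher in 456wt. The values gene by gene were not run with the germ cell list scaling. Of these, 34 no longer passed the threshold, 804 were unchanged, and no called difference turned direction. Unchanged means that a test kept its side of the threshold, or that a mean level moved by less than its SD between samples. With the library number as a replicate block, 8 members and 11774 of all genes differed. Over 14348 genes, libraries with the same library number in different samples did not deviate together (median r = −0.01, from −0.06 to 0.13 over 18 pairs). A correlation over many genes cannot exclude pairing for single genes, so it does not decide whether the library numbers pair the samples. Among the members, Fancf was lowest in library 2 of every sample (3.99, 3.53, 5.1 and 4.12 FPKM). No other member was lowest in the same library number throughout. Depth limits Fancb most, with a counting error of 17.1% in the median library.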
